A study of Mus musculus with 27 samples.

Results

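Slc13a3, Raver2, Draxin, Lad1, Ppic, St6gal1, Shisa3, Prss46 and Zfp811 are 9 of the 23995 genes measured in cultured mouse microglia, and all 9 passed the filter on low values that left 14668 genes. They were picked by symbol for high values or stronger rises in cells given CpG, so their CpG values are described here without a test. The cells were primary microglia, obtained by shaking from mixed glia grown out of newborn cortex, and bulk RNA-seq gave 27 libraries. They came from CB2-/- mice (B6.Cg-Cnr2tm1Zim), made to lack the cannabinoid receptor CB2, or from wild-type C57BL/6J mice. Cells of each genotype were given CpG (1 nmol/ml), LPS (100 ng/ml) with IFN-γ (20 ng/ml), or PolyI:C for 16 h, or were left unstimulated. There were 3 libraries in each of 7 groups and 6 of unstimulated wild-type cells.

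CpG is unmethylated DNA sensed by Toll-like receptor (TLR) 9, a receptor of the endosome that is escorted there by Unc93b1, trimmed by cathepsins and coupled through Myd88 and the Irak kinases to NF-kB and interferon regulatory factors. LPS acts through TLR4 and PolyI:C, a double-stranded RNA mimic, through TLR3. Microglia are the macrophages of the brain and carry all of these receptors. The members belong to no single pathway. Slc13a3 is a sodium-coupled transporter of succinate and related dicarboxylates, and Ppic (cyclophilin C) and St6gal1 (a sialyltransferase of the Golgi) are enzymes of protein folding and glycosylation. Draxin is a secreted axon guidance cue and Shisa3 belongs to a family known in Xenopus for holding back Wnt and FGF receptors. Lad1 (ladinin) is a protein of basement membrane anchoring filaments, Raver2 an RNA-binding partner of PTB, Prss46 a trypsin-like serine protease and Zfp811 a zinc finger protein.

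Library numbers were split here into 2 series, which the labels do not name. Numbers 2048 to 2188 belong to all libraries labelled CB2-/- (2048 to 2059) and to replicates 4 to 6 of unstimulated wild-type cells (2186 to 2188). Numbers 3012 to 3023 belong to replicates 1 to 3 of unstimulated wild-type cells and to all stimulated wild-type libraries. Whether 2048 to 2059 and 2186 to 2188 were prepared together is not stated. For stimulated cells genotype and series cannot be told apart, and the size of the series term comes from the unstimulated wild-type libraries alone. Cnr2, the targeted gene, held 217 to 454 normalised counts in every library labelled CB2-/-, against 172 to 233 in unstimulated wild-type libraries and at most 22 in stimulated ones, so the genotype rests on the labels. Summed normalised counts ran from 6341299 to 14151982 per library, and in series 2048 to 2188 a single gene took up to 31.3% of them. All 8 microglia markers were detected in every library. Replicate 1 of wild-type CpG, PolyI:C and unstimulated cells held the fewest astrocyte and fibroblast transcripts of their groups. Whether the libraries of a group came from separate mice or cultures is not stated, and the p-values reflect the variation among these libraries, which may be technical.

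Stretches just upstream of the transcription start are shown for 5 of 6 members. In these 6, wild-type CpG libraries stood above every other library in the data. The inner start of St6gal1, which was highest without stimulus in both genotypes, is shown as well. The stretches come from the RefSeq annotation of GRCm38.p6, where 8 of the 9 members had an entry, with 10 starts in all. Each covers at most 250 bases, leaves out bases that lie in an annotated exon, and is written 5′ to 3′ on the gene's strand. Capitals mark matches on either strand to NF-kB (GGG and CC with 5 bases of any kind between them), AP-1 (TGANTCA), CRE (TGACGTCA), ISRE (2 runs of GAAA with 2 bases between them), PU.1 (GAGGAAG) or C/EBP (TTGCNNAA), and adjoining capitals are overlapping matches.
Slc13a3, chr2:165473231-165473447, minus strand: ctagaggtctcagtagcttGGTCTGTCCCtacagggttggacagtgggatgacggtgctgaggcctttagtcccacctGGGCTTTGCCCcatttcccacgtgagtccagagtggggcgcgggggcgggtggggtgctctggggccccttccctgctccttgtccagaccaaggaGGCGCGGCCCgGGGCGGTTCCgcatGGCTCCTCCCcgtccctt
Raver2, chr4:101068788-101068982, plus strand: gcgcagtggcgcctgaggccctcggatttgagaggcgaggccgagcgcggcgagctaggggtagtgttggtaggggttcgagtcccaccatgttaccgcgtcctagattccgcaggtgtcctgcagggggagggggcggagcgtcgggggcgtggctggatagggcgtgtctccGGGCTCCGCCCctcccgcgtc
Draxin, chr4:148130699-148130914, minus strand: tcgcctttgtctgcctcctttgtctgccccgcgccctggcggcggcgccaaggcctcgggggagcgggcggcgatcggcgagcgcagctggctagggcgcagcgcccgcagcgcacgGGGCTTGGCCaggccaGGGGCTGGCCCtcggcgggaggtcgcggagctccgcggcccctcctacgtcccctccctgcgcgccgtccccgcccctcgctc
Lad1, chr1:135818348-135818597, plus strand: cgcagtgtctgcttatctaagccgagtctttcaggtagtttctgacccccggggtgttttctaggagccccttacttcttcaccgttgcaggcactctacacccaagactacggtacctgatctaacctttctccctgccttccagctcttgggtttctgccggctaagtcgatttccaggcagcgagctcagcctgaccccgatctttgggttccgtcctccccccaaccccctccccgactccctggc
Shisa3, chr5:67607827-67607881, plus strand: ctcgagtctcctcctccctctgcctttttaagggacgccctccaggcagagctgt
St6gal1, chr16:23290220-23290469, plus strand: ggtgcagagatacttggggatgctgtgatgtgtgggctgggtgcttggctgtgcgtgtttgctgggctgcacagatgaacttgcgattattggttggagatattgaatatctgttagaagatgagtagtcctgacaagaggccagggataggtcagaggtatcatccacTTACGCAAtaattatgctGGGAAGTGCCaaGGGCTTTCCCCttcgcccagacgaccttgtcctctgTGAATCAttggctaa
In the full 250 bases before the start, Slc13a3, Raver2, Draxin, Shisa3, Prss46 and the inner St6gal1 start held the NF-kB letters, which 46% of all 32536 promoters also hold. Lad1 and Zfp811 held none of the 6 patterns, and neither did the outermost St6gal1 start. The inner St6gal1 start was the one window among the members with AP-1 letters, found in 6.73% of promoters. It and the middle St6gal1 start held C/EBP letters, found in 9.57%, and the middle start held no other pattern. Such matches describe letters and show no binding. The Shisa3 match lies 180 bases before the start and a further Raver2 match 46 bases before its start, both outside the stretches shown.

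**Figure D1:**
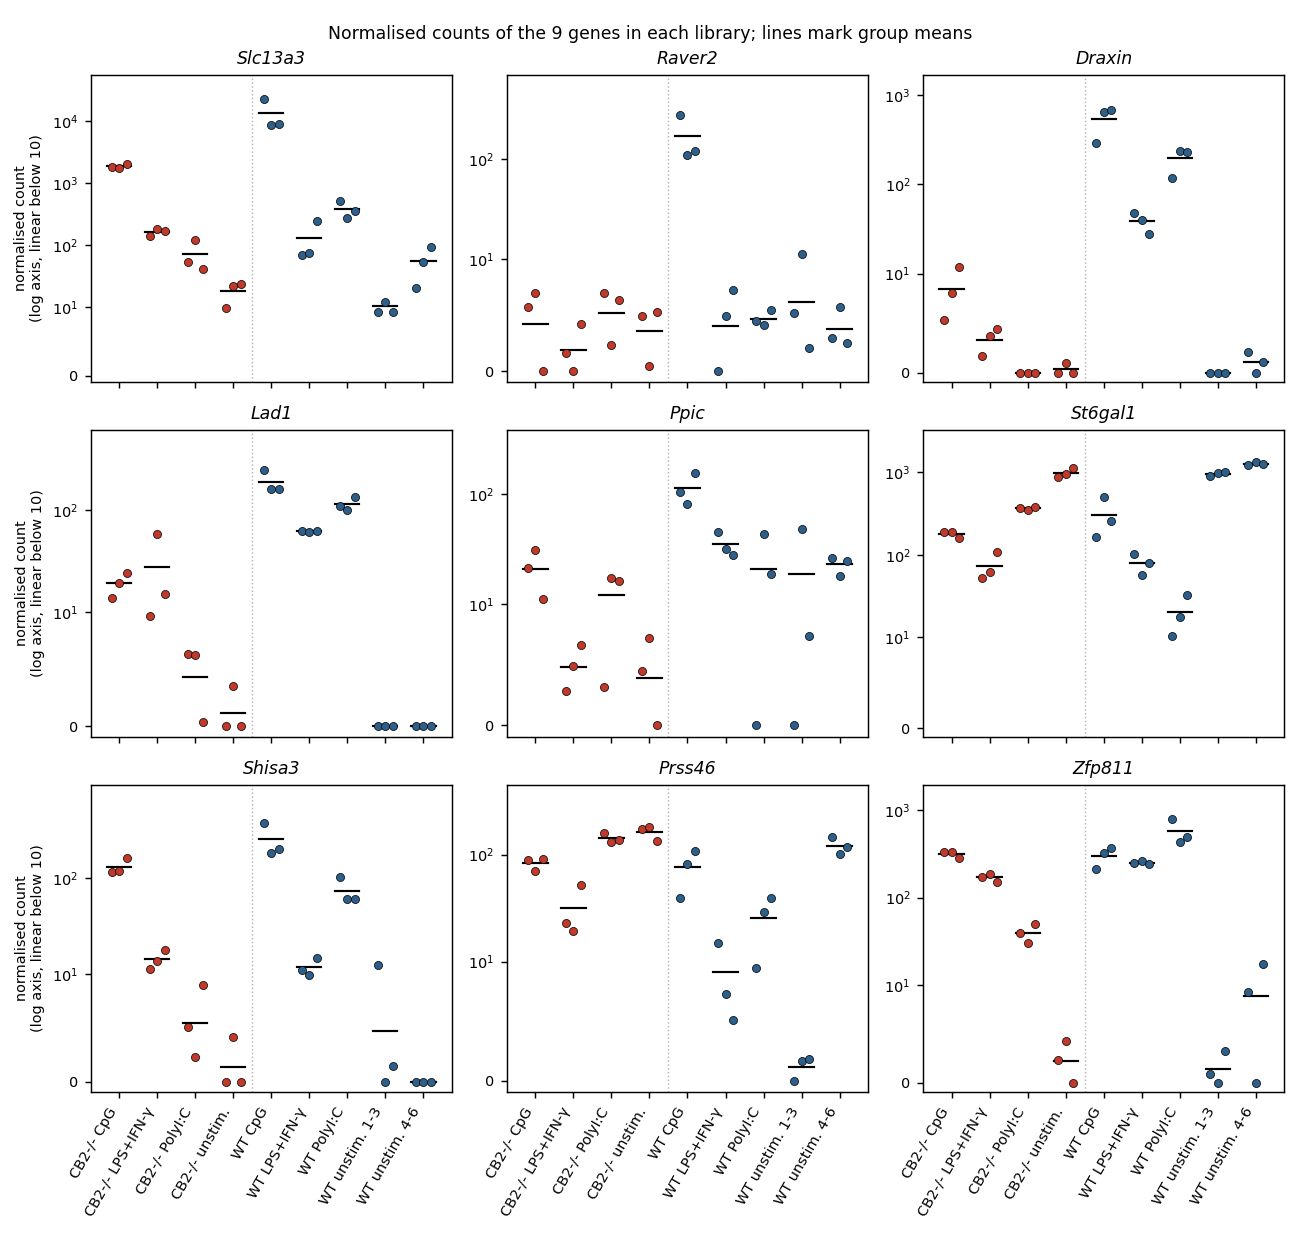
Normalised counts of each of the 9 genes (vertical axis, logarithmic above 10 and linear below) in each of the 27 libraries, with the CB2-/- groups left and the wild-type groups right of the dotted line; a point is a library and a line a group mean. Slc13a3, Raver2, Draxin, Lad1, Ppic and Shisa3 were highest in wild-type CpG libraries, while St6gal1 was highest in unstimulated cells of both genotypes.

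Slc13a3 (chromosome 2, 165405028 to 165473230 in GRCm38, minus strand) stood far above its unstimulated level with CpG in both genotypes. In CpG libraries labelled CB2-/- it stood at 1837, 1735 and 2038 normalised counts, against 9.88, 21.6 and 23.4 in unstimulated ones. Wild-type CpG libraries held 22788, 8585 and 9112, against 9.32, 11.9 and 9.24 in unstimulated replicates 1 to 3 and 20.5, 52.4 and 92.5 in replicates 4 to 6. CpG and unstimulated libraries did not overlap in either genotype, and the lowest wild-type CpG library was above the highest CpG library labelled CB2-/-. The log2 change with CpG was 6.68 ± 0.50 (SE) in cells labelled CB2-/- and 10.10 ± 0.50 in wild-type cells, on the log2(value + 1) scale used throughout, which understates changes of low genes. The CpG mean was 11.5 times the LPS plus IFN-γ mean and 26 times the PolyI:C mean in cells labelled CB2-/-, and 103 and 35.0 times those means in wild-type cells. Of all 14668 genes tested, ranked by the CpG level minus the higher of the other stimulated levels, Slc13a3 was number 2 in cells labelled CB2-/- and number 1 in wild-type cells.

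Wild-type CpG replicate 1, the library with 22788, also held the highest Raver2, Lad1 and Shisa3 and the lowest Draxin, St6gal1, Prss46 and Zfp811 of its group. Its 8 astrocyte markers summed to 100.1 normalised counts and its 8 fibroblast markers to 17.7, with 2 and 5 of them at 0. The other 2 wild-type CpG libraries had 862 and 1336 for astrocyte markers and 1273 and 2203 for fibroblast markers. Without replicate 1 the wild-type change of Slc13a3 was 9.64, of Raver2 4.23 and of Shisa3 5.90. CpG libraries labelled CB2-/- had 164 to 223 for astrocyte and 95.8 to 102 for fibroblast markers. Their part in the difference between the genotypes was not tested. In bulk RNA, fewer cells that express a gene and less RNA per cell cannot be told apart.

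Raver2 (chromosome 4, 101068983 to 101152370, plus strand) was raised in a single group. Its normalised counts were 5.71, 7.03 and 0 in CpG libraries labelled CB2-/-, where unstimulated ones held 4.97, 0.457 and 5.32. In wild-type CpG libraries they were 275, 109 and 121, against 2.11 to 11.3 in the 6 unstimulated libraries. CpG and unstimulated libraries overlapped in cells labelled CB2-/- and did not in wild-type cells. The log2 change was -0.01 ± 0.89 in cells labelled CB2-/- and 4.65 ± 0.89 in wild-type cells. All 12 libraries given another stimulus lay between 0 and 7.28. Raver2 passed the filter on low values only through its wild-type CpG libraries, since 1 other library reached 10, so its tests in the other comparisons are not given. In that ranking by CpG over the other stimuli Raver2 was number 10511 in cells labelled CB2-/- and number 3 in wild-type cells. Jak1, on the other strand, shares 4 bases of exon with it (0.0631% of the Raver2 exons) and had a mean of 2080 in CpG libraries labelled CB2-/- and 1637 in wild-type CpG libraries.

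Draxin (chromosome 4, 148098437 to 148130698, minus strand) and Lad1 (chromosome 1, 135818598 to 135833342, plus strand) followed each other, with a Pearson correlation of 0.90 over the 27 libraries, the highest of the 36 pairs of members. These libraries share their series and stimuli, so this is a description. Draxin stood at 5.27, 8.0 and 11.9 in CpG libraries labelled CB2-/-, against 0, 0.960 and 0 in unstimulated ones, and at 294, 647 and 683 in wild-type CpG libraries, against 0 in unstimulated replicates 1 to 3 and 2.11, 0 and 1.11 in replicates 4 to 6. Lad1 stood at 13.9, 19.6 and 24.4 in CpG libraries labelled CB2-/-, against 0, 3.52 and 0 in unstimulated ones. It was at 245, 161 and 162 in wild-type CpG libraries and listed at 0 in all 6 unstimulated wild-type libraries. For both genes every wild-type CpG library was far above every CpG library labelled CB2-/-. No fold is given for either in wild-type cells, since the unstimulated libraries of the same series were listed at 0. In cells labelled CB2-/- the log2 change with CpG was 2.85 ± 0.54 for Draxin and 3.58 ± 0.67 for Lad1. For each gene 2 of the 3 unstimulated libraries labelled CB2-/- were at 0, so these sizes also depend on the pseudocount. Across the settings run they went from 0.96 to 3.57 for Draxin and from 1.58 to 4.31 for Lad1. Of 5 monocyte and neutrophil markers in the table, the summed level ran between 45 and 82.2 in CpG libraries labelled CB2-/-, and between 264 and 379 in wild-type CpG libraries, against 14.8 to 45.2 in unstimulated wild-type libraries. S100a8 reached at most 377 in any library, against 36.4 for Ly6c2, 35.7 for Ccr2, 10.1 for S100a9 and 2.82 for Mpo. Most of the wild-type CpG sums was therefore S100a8. S100a9 was at 0 in 25 and Mpo in 24 of the 27 libraries. The part of such cells in these levels was not tested.

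Shisa3 (chromosome 5, 67607882 to 67623552, plus strand) stood above its unstimulated level with CpG in both genotypes. It stood at 115, 119 and 159 in CpG libraries labelled CB2-/-, against 0, 4.17 and 0 in unstimulated ones, and at 371, 182 and 200.2 in wild-type CpG libraries, against 12.6, 0 and 1.42 in unstimulated replicates 1 to 3 and 0 in replicates 4 to 6. CpG libraries lay above all unstimulated and all other stimulated libraries of their genotype. The log2 changes were 6.24 ± 0.72 in cells labelled CB2-/- and 6.22 ± 0.72 in wild-type cells, and in the ranking above it was number 6 in cells labelled CB2-/- and number 227 in wild-type cells. Atp8a1 on the other strand shares 138 bases with its exons (2.9% of them). The labels name no kit that keeps strand, so reads from these bases cannot be told apart.

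Ppic (chromosome 18, 53406332 to 53418115, minus strand) was low and scattered. CpG libraries labelled CB2-/- held 21.3, 30.8 and 11 normalised counts, against 4.48, 7.20 and 0 in unstimulated ones. Wild-type CpG libraries held 106, 82.3 and 157, against 0, 48.8 and 7.38 in unstimulated replicates 1 to 3 and 26.4, 18.1 and 24.4 in replicates 4 to 6. CpG libraries lay above unstimulated ones in both genotypes. The log2 change was 2.52 ± 1.16 in cells labelled CB2-/- and 3.91 ± 1.16 in wild-type cells, and without the 3 wild-type libraries low in astrocyte and fibroblast markers it was 2.49 in wild-type cells.

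For the 3 remaining members the wild-type CpG libraries were not the highest of all. St6gal1 (chromosome 16, 23224740 to 23360350, plus strand) stood at 187, 188 and 158 in CpG libraries labelled CB2-/-, against 879.5, 951 and 1135 in unstimulated ones. Wild-type CpG libraries held 162, 508 and 253, against a lowest, median and highest value of 915, 1117 and 1331 in the 6 unstimulated libraries. The log2 change with CpG was -2.47 ± 0.34 in cells labelled CB2-/- and -1.81 ± 0.34 in wild-type cells, so St6gal1 was lower with CpG than without, and high in wild-type CpG libraries only beside the other stimuli. BC106179 on the other strand shares 200 bases with its exons (4.07% of them) and reached at most 28.4 in any group.

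Zfp811 (chromosome 17, 32795676 to 32809931, minus strand) was near 0 without stimulus and high with CpG and LPS plus IFN-γ in both genotypes. CpG libraries labelled CB2-/- held 329, 334 and 284 normalised counts, against 2.32, 4.25 and 0 in unstimulated ones, and the log2 change was 6.93 ± 0.71. These CpG libraries lay above every other library labelled CB2-/-. Wild-type CpG libraries held 212, 324 and 368, against 0.904, 0 and 3.21 in unstimulated replicates 1 to 3 and 9.33, 0 and 17.4 in replicates 4 to 6, with a change of 7.20 ± 0.71. The highest group in wild type was PolyI:C, at 781, 432 and 493, above every wild-type CpG library.

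Prss46 (chromosome 9, 110844506 to 110856522, plus strand) differed between the library series. In unstimulated wild-type cells it stood at 147, 100.4 and 117 in replicates 4 to 6, of series 2048 to 2188, and at 0, 1.68 and 1.85 in replicates 1 to 3, of series 3012 to 3023. The term for series was 5.94 ± 0.51 log2 units, with an adjusted p of 2.19e-08 (limma, Benjamini-Hochberg). CpG libraries labelled CB2-/- held 89.3, 70.8 and 90.9, below unstimulated ones with 172, 180.4 and 134. Wild-type CpG libraries held 39.3, 82.3 and 107, above unstimulated replicates 1 to 3 and around or below replicates 4 to 6. The log2 change was -0.95 ± 0.51 in cells labelled CB2-/- and 5.18 ± 0.51 in wild-type cells, and the second turns on which unstimulated libraries are taken. Slc13a3 also had a series term past the threshold, 2.10 ± 0.50 with an adjusted p of 0.0064, and with Prss46 it made 2 of 9 members, where 12% of all tested genes passed (limma). The other 7 did not pass.

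CpG gave the highest of the 3 stimulated means for 5 of 9 members in cells labelled CB2-/- (28.7% of all tested genes) and for 8 of 9 in wild-type cells (39.6%). The members were picked for this, so nothing is read from these counts. The exceptions in cells labelled CB2-/- were Raver2, Prss46 and St6gal1, highest with PolyI:C, and Lad1, highest with LPS plus IFN-γ through a single library of 58.2. In wild-type cells the exception was Zfp811.

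**Figure D2:**
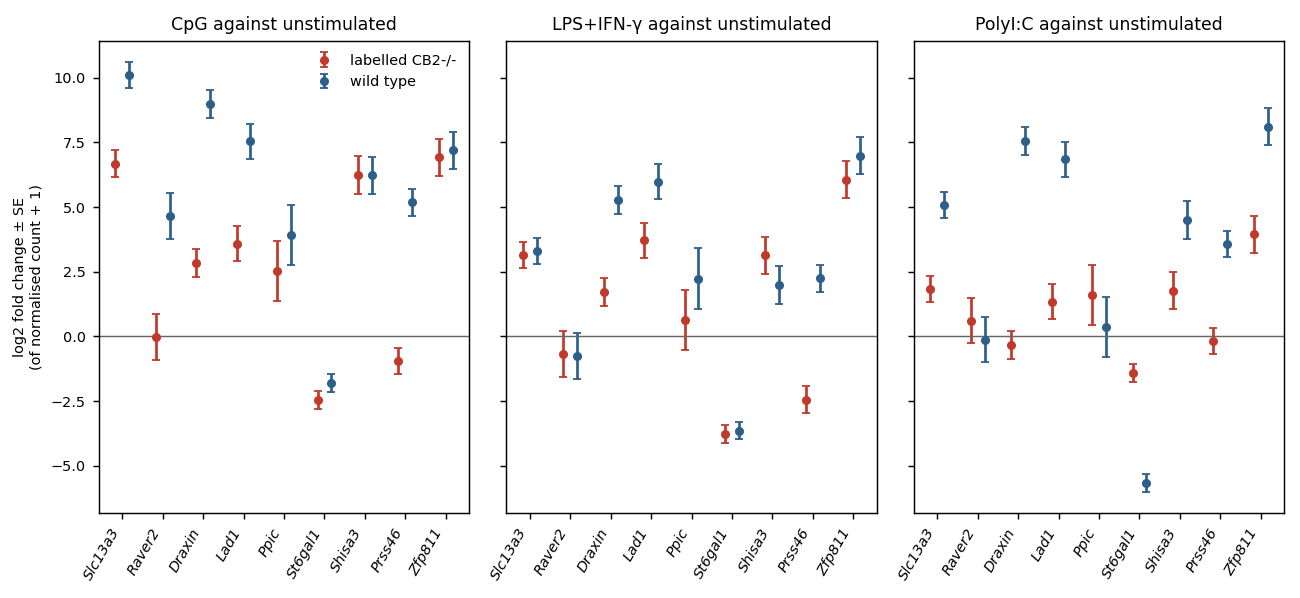
Log2 fold change of each gene against unstimulated cells with its standard error (vertical axis), for CpG, LPS plus IFN-γ and PolyI:C, in libraries labelled CB2-/- and wild type. St6gal1 lay below 0 in all 6 responses, and Prss46 lay below 0 in libraries labelled CB2-/- and above 0 in wild type. Wild-type values of Draxin and Lad1 rest on unstimulated libraries listed at 0 and are no fold.

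The members were picked as genes that prefer CpG, so the other stimulated and the unstimulated libraries are what CpG was set against. The tests of the other stimuli come from the fit across all genes, but they are not independent of that choice, and the counts and medians of members given with them are descriptions from which nothing is read. With LPS plus IFN-γ, 5 of 9 members rose in cells labelled CB2-/-, where 12.8% of all tested genes did, and 2 fell, where 10.9% did. In wild-type cells 6 rose (21.7% of all tested genes) and 1 fell (18%). Slc13a3, Draxin, Lad1, Shisa3 and Zfp811 rose in both, and St6gal1 fell in both (limma, Benjamini-Hochberg over all tested genes). With LPS plus IFN-γ the median log2 change of the members was 1.71 in cells labelled CB2-/- and 2.24 in wild-type cells. For all tested genes it was 0.03 and 0.05. Slc13a3 stood at 140.1, 181 and 166 with LPS plus IFN-γ in libraries labelled CB2-/-, above all 3 unstimulated ones, with a change of 3.16 ± 0.50 and an adjusted p of 3.22e-05 (limma). In wild-type libraries it stood at 69.6, 73.5 and 248, with a change of 3.30 ± 0.50 and an adjusted p of 8.77e-06 (limma). Zfp811 stood at 174, 188 and 152 in libraries labelled CB2-/-, changed by 6.05 ± 0.71 (adjusted p = 4.23e-07, limma), and at 246, 265 and 243 in wild-type libraries, changed by 6.98 ± 0.71 (adjusted p = 1.76e-08, limma). St6gal1 fell to 51.9, 62.2 and 107 in libraries labelled CB2-/- and to 102, 56.4 and 78.4 in wild-type libraries, with changes of -3.79 ± 0.34 and -3.64 ± 0.34 (adjusted p = 5.03e-09 and 3.73e-09, limma). No LPS plus IFN-γ library of St6gal1 or Zfp811 overlapped the unstimulated libraries of its genotype.

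Lad1 held 9.71, 58.2 and 15.2 with LPS plus IFN-γ in libraries labelled CB2-/-, a change of 3.72 ± 0.67 with an adjusted p of 1.47e-04 (limma), and 63.0, 61.3 and 62.5 in wild-type libraries, where the adjusted p was 7.71e-08. Without the 7 libraries in which 1 gene took over 5% of the summed values, LPS plus IFN-γ replicate 1 was the only one left of its group labelled CB2-/-. The Lad1 change in cells labelled CB2-/- was then 2.33, and a single library cannot show whether the call held. Draxin reached 1.69, 3.66 and 4.43 in libraries labelled CB2-/- (change 1.71 ± 0.54, adjusted p = 0.0235, limma) and 48.3, 40.3 and 28 in wild-type libraries (adjusted p = 2.02e-08, limma). The Draxin call in cells labelled CB2-/- was lost without unstimulated replicate 1 or 3 or LPS plus IFN-γ replicate 2 or 3. Changes were then 1.50 to 1.61, with adjusted p of 0.0782 to 0.0981 (limma). With a pseudocount of 8 the call was also lost (0.43, adjusted p = 0.370, limma), so its size depends on the pseudocount. It was lost too without the low-value filter (adjusted p = 0.0754, limma) and with quantile scaling (adjusted p = 0.0562). Shisa3 stood at 11.4, 13.7 and 18.1 in libraries labelled CB2-/- (change 3.13 ± 0.72, adjusted p = 0.00199, limma) and at 11, 9.96 and 14.7 in wild-type libraries (1.99 ± 0.72, adjusted p = 0.0307), where they overlapped the unstimulated libraries. The wild-type Shisa3 call was lost without unstimulated replicate 2 or 3 or any of the 3 LPS plus IFN-γ libraries. Changes were then 1.15 to 2.10, with adjusted p of 0.0523 to 0.219 (limma). It was also lost under 5 of 11 other settings, among them a pseudocount of 8 (0.77, adjusted p = 0.0729, limma). Without the 7 libraries named above, again with LPS plus IFN-γ replicate 1 alone, the Shisa3 change in cells labelled CB2-/- was 2.45. Ppic did not pass (adjusted p = 0.776 in cells labelled CB2-/- and 0.136 in wild type, limma). Ppic passed in wild type without unstimulated replicate 2, with a change of 3.60 and an adjusted p of 0.0168.

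Prss46 fell with LPS plus IFN-γ in cells labelled CB2-/-, at 23.2, 19.5 and 52.0 against 172, 180.4 and 134 unstimulated (-2.45 ± 0.51, adjusted p = 7.52e-04, limma). In wild-type cells it rose in the fit with the series term, at 15, 7.24 and 5.10 against 0, 1.68 and 1.85 in unstimulated replicates 1 to 3 (2.24 ± 0.51, adjusted p = 9.81e-04, limma). Without the series term the wild-type change was -0.73 with an adjusted p of 0.649, and that of cells labelled CB2-/- was -2.45 with an adjusted p of 0.221.

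With PolyI:C, 2 of 9 members rose in cells labelled CB2-/- (5.11% of all tested genes) and 1 fell (3.44%), while in wild-type cells 6 rose (21.2%) and 1 fell (19.9%). Slc13a3 and Zfp811 rose and St6gal1 fell in both genotypes (limma). The members' median log2 change was 1.35 in cells labelled CB2-/- and 4.5 in wild-type cells, beside 0.01 and -0.06 for all tested genes. Zfp811 stood at 39.0, 30.1 and 50.6 in libraries labelled CB2-/- (3.95 ± 0.71, adjusted p = 6.73e-04, limma) and at 781, 432 and 493 in wild-type libraries (8.11 ± 0.71, adjusted p = 1.35e-09, limma). St6gal1 stood at 375, 354 and 376 in libraries labelled CB2-/- (-1.41 ± 0.34, adjusted p = 0.00893, limma). In wild-type libraries it was at 10.1, 17.7 and 32.3, its lowest group (-5.67 ± 0.34, adjusted p = 1.3e-12, limma). PolyI:C libraries of the genotypes did not overlap for either gene. Without the 7 libraries in which 1 gene took over 5% of the values, the change of St6gal1 in cells labelled CB2-/- was -1.28, with an adjusted p of 0.18 (limma). PolyI:C replicates 1 and 3 and unstimulated replicates 1 and 2 of that genotype were then left.

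Draxin was listed at 0 in all 3 PolyI:C libraries labelled CB2-/- (adjusted p = 0.812, limma) and stood at 118, 238 and 232 in wild-type ones (adjusted p = 3.69e-11, limma). Lad1 was at 6.32, 6.28 and 0.398 in libraries labelled CB2-/- (adjusted p = 0.262, limma) and at 109.5, 100.2 and 134 in wild-type libraries (adjusted p = 8.49e-09, limma). Shisa3 was at 5.06, 2.35 and 8.98 in libraries labelled CB2-/- (1.76 ± 0.72, adjusted p = 0.151, limma) and at 102, 59.8 and 60.1 in wild-type libraries (4.5 ± 0.72, adjusted p = 1.68e-05). All 3 genes were thus low in every PolyI:C library labelled CB2-/- and high in every wild-type one. The 5 monocyte and neutrophil markers summed to between 28.1 and 48.7 in PolyI:C libraries labelled CB2-/- and between 235 and 356 in wild-type PolyI:C libraries, and their part was not tested. S100a8 made up most of these wild-type sums, since no other of the 5 markers passed 36.4 in any library. Shisa3 passed in cells labelled CB2-/- without unstimulated replicate 2 of that genotype (2.55, adjusted p = 0.0418, limma). Slc13a3 stood at 52.6, 122 and 41.2 in libraries labelled CB2-/- (1.85 ± 0.50, adjusted p = 0.0217, limma) and at 523, 276 and 359 in wild-type libraries (5.08 ± 0.50, adjusted p = 1.12e-08). The first of these calls was lost without unstimulated replicate 1 or PolyI:C replicate 2 of that genotype, with changes of 1.39 to 1.48 and adjusted p of 0.129 to 0.143. Prss46 stood at 158, 131 and 137 in libraries labelled CB2-/- (-0.18 ± 0.51, adjusted p = 0.894, limma) and at 9.44, 28.9 and 39.1 in wild-type ones (3.56 ± 0.51, adjusted p = 3.53e-06; 0.59 with an adjusted p of 0.708 without the series term). Ppic passed in neither genotype, with adjusted p of 0.487 in cells labelled CB2-/- and 0.843 in wild-type cells (limma).

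The other 2 stimuli were also set against each other. In cells labelled CB2-/-, 2 of 9 members were higher with LPS plus IFN-γ than with PolyI:C (6.95% of all tested genes) and 2 were lower (4.96%). In wild-type cells 1 was higher (5.35%) and 3 were lower (3.91%). St6gal1 was lower with LPS plus IFN-γ than with PolyI:C in cells labelled CB2-/- (-2.37 ± 0.34, adjusted p = 2.32e-05, limma) and higher in wild-type cells (2.03 ± 0.34, adjusted p = 2.17e-04). Draxin was higher with LPS plus IFN-γ in cells labelled CB2-/- (adjusted p = 0.0135, limma), where PolyI:C libraries were listed at 0, and lower in wild-type cells (-2.27 ± 0.54, adjusted p = 0.00752). Lad1 was higher in cells labelled CB2-/- (2.37 ± 0.67, adjusted p = 0.0194, limma) and did not pass in wild-type cells (-0.86 ± 0.67, adjusted p = 0.524). Prss46 was lower in cells labelled CB2-/- (-2.26 ± 0.51, adjusted p = 0.00324, limma), and Slc13a3 (-1.77 ± 0.50, adjusted p = 0.0261) and Shisa3 (-2.51 ± 0.72, adjusted p = 0.0278) were lower in wild-type cells. Zfp811 did not pass in cells labelled CB2-/- (2.10 ± 0.71, adjusted p = 0.0578, limma) or in wild-type cells (-1.13 ± 0.71, adjusted p = 0.404). It passed under 5 and 3 of 11 other settings, respectively. Fits of only the compared libraries lost the wild-type calls of St6gal1 (2.03, adjusted p = 0.0598, limma) and Slc13a3 (-1.77, adjusted p = 0.111). They also lost the Lad1 call in cells labelled CB2-/- (2.37, adjusted p = 0.150, limma). With a pseudocount of 8 the Draxin call in cells labelled CB2-/- was lost (0.49, adjusted p = 0.382, limma). It was also lost with quantile scaling (adjusted p = 0.0656, limma) and in the authors' batch-corrected table (adjusted p = 0.0629). In cells labelled CB2-/- it was lost as well without LPS plus IFN-γ replicate 2 or 3 (adjusted p 0.0561 to 0.0714, limma). There the Lad1 call was lost without LPS plus IFN-γ replicate 2 or PolyI:C replicate 3 (changes of 1.57 to 1.65, adjusted p 0.152 to 0.175), and Slc13a3 passed without PolyI:C replicate 2 (1.77, adjusted p = 0.0362, limma). In wild-type cells the Slc13a3 call was lost without LPS plus IFN-γ replicate 1 or 2 or PolyI:C replicate 1 or 3 (changes of -1.80 to -1.46, adjusted p 0.0552 to 0.147). The Shisa3 call was lost there without any LPS plus IFN-γ library or PolyI:C replicate 1 or 2 (changes of -2.66 to -2.26, adjusted p 0.0526 to 0.108), and Prss46 passed without PolyI:C replicate 1 (-1.90, adjusted p = 0.0203, limma).

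Without stimulus the genotypes were compared within series 2048 to 2188. None of the 9 members passed (limma), where 9.9% of all tested genes did, and 2 of them, Slc13a3 and Ppic, had an unadjusted p under 0.05. Slc13a3 stood at 9.88, 21.6 and 23.4 in unstimulated libraries labelled CB2-/-, against 20.5, 52.4 and 92.5 in wild-type replicates 4 to 6, a difference of -1.39 ± 0.50 with an adjusted p of 0.0854 (limma). Without wild-type replicate 4 it passed (-1.96, adjusted p = 0.011, limma), and so did Zfp811 without wild-type replicate 5 (-2.41, adjusted p = 0.00815, limma). Ppic stood at 4.48, 7.20 and 0, against 26.4, 18.1 and 24.4, with no overlap and a difference of -2.73 ± 1.16 (adjusted p = 0.147, limma). Wild-type replicates 4 to 6 also held the most astrocyte transcripts, up to 2613 summed over 8 markers, against 189 to 299 in unstimulated libraries labelled CB2-/-, and their part was not tested.

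The response to PolyI:C differed between genotypes for 6 of 9 members: 1 response was higher in cells labelled CB2-/- (10.8% of all tested genes) and 5 were lower (13.9%). The response to LPS plus IFN-γ differed for 2 of 9, both lower in cells labelled CB2-/- (8.36%), with none higher (3.98%, and 3 of 9 at an unadjusted p under 0.05 in either direction). These values are the log2 response of cells labelled CB2-/- minus that of wild-type cells, from the interaction of genotype and stimulus. For PolyI:C they were -3.23 ± 0.71 for Slc13a3 (adjusted p = 0.00144, limma), -4.16 ± 1.01 for Zfp811 (adjusted p = 0.00329) and 4.26 ± 0.48 for St6gal1 (adjusted p = 3.44e-07). The last is positive because St6gal1 fell less in cells labelled CB2-/-. For Draxin (-7.88 ± 0.77, adjusted p = 4.08e-08, limma) and Lad1 (-5.50 ± 0.95, adjusted p = 1.01e-04) the fitted differences rest on groups listed at 0, so their size depends on the pseudocount. Prss46 differed by -3.74 ± 0.72 (adjusted p = 3.6e-04, limma), and by -0.77 with an adjusted p of 0.798 without the series term. Slc13a3 differed by -2.18 with an adjusted p of 0.0719 without it (limma). Shisa3 just missed the threshold (-2.74 ± 1.02, adjusted p = 0.0526, limma), and passed without wild-type unstimulated replicate 1, unstimulated replicate 1 or 3 labelled CB2-/- or PolyI:C replicate 3 labelled CB2-/- (differences of -3.78 to -3.12, adjusted p 0.00281 to 0.0394).

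For LPS plus IFN-γ, Draxin differed by -3.58 ± 0.77 (adjusted p = 0.00241, limma), again against groups listed at 0, and Prss46 by -4.69 ± 0.72 (adjusted p = 6.93e-05), or by -1.72 with an adjusted p of 0.654 without the series term. Slc13a3 differed by -0.14 ± 0.71 (adjusted p = 0.938, limma) and St6gal1 by -0.14 ± 0.48 (adjusted p = 0.902). Lad1 differed by -2.27 ± 0.95 (adjusted p = 0.131, limma) and passed without LPS plus IFN-γ replicate 2 labelled CB2-/- (-2.99, adjusted p = 0.0415). Whether the difference between genotypes was itself larger for PolyI:C than for LPS plus IFN-γ was not tested.

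**Figure D3:**
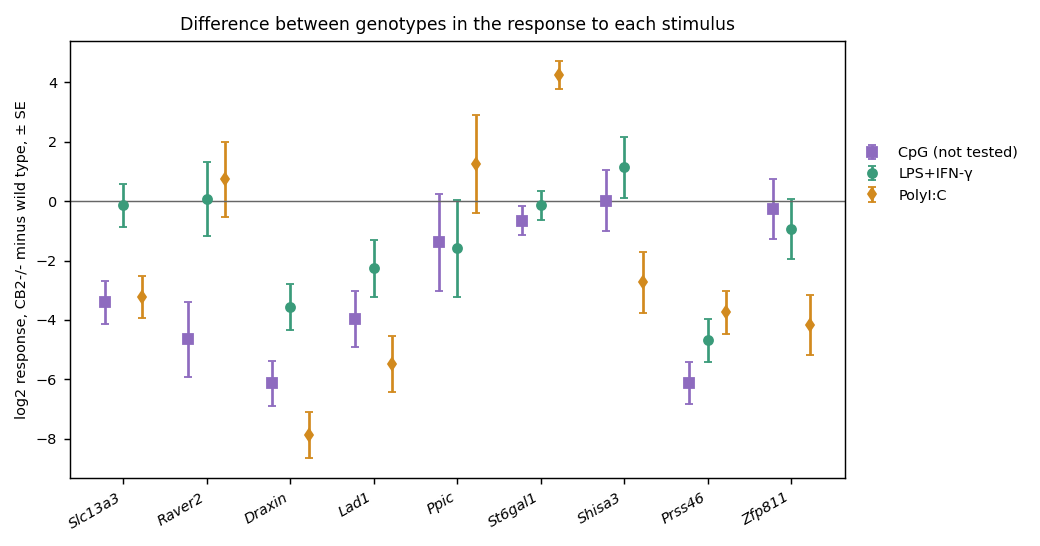
Log2 response of libraries labelled CB2-/- minus that of wild type, with its standard error (vertical axis), for each gene and stimulus; points below 0 mean a smaller rise or a larger fall in libraries labelled CB2-/-. Draxin had the lowest PolyI:C value (-7.88) and St6gal1 the highest (4.26), and the CpG values were used to pick the genes and were not tested. Values of Draxin and Lad1 rest on groups listed at 0.

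For CpG the same difference is given as a description. It was -3.41 ± 0.71 for Slc13a3, -4.66 ± 1.25 for Raver2 and -6.14 ± 0.77 for Draxin. Lad1 differed by -3.96 ± 0.95 and Prss46 by -6.12 ± 0.72. It was 0.02 ± 1.02 for Shisa3, -0.27 ± 1.01 for Zfp811, -0.65 ± 0.48 for St6gal1 and -1.39 ± 1.65 for Ppic. The values of Draxin and Lad1 rest on groups listed at 0, so their size depends on the pseudocount. Those of Slc13a3 and Prss46 turn on which unstimulated wild-type libraries are taken, since both had a series term past the threshold. The differences of Shisa3 and Zfp811 were smaller than their standard errors. That of Shisa3 rests on unstimulated wild-type replicates 1 to 3 with their value of 12.6, and without the 3 wild-type libraries low in astrocyte and fibroblast markers its wild-type change was 6.95. Every CpG library labelled CB2-/- was below every wild-type one for Slc13a3, Raver2, Draxin, Lad1, Ppic and Shisa3, and the genotypes overlapped for St6gal1, Prss46 and Zfp811. The share of all tested genes without overlap was not counted. Genotype and series are the same split here, so nothing is read from the members without overlap.

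The other genes of TLR9 trafficking and signalling were taken as a list of 35, all tested. With CpG, 7 were higher (6.82% of all tested genes) and 12 lower (7.44%) in cells labelled CB2-/-, and 5 were higher (16.5%) and 19 lower (19.6%) in wild-type cells. The 5 were Irak3, Irak2, Hsp90b1, Myd88 and Tab2. The median log2 change of the list was -0.09 in cells labelled CB2-/- and -0.55 in wild-type cells, beside 0 and -0.09 for all tested genes. Tlr9 itself had a mean of 164 with CpG in libraries labelled CB2-/-, against 156 unstimulated, and did not pass (0.08 ± 0.21, adjusted p = 0.892, limma). In wild-type cells Tlr9 fell to 54.2 with CpG, against 411 in unstimulated replicates 1 to 3 (-2.91 ± 0.21, adjusted p = 8.22e-11, limma). The difference between genotypes was 2.99 ± 0.30 for Tlr9, with an adjusted p of 4.15e-07 (limma), and 12 of the 35 genes had a higher response in cells labelled CB2-/- (6.11% of all tested genes) and 1, the protease gene Ctsl, a lower one (5.66%). With LPS plus IFN-γ 10 of the 35 genes rose (12.8% of all tested genes) and 10 fell (10.9%) in cells labelled CB2-/-, and 14 rose (21.7%) and 11 fell (18%) in wild-type cells. With PolyI:C 8 rose (5.11%) and 1 fell (3.44%) in cells labelled CB2-/-, and 12 rose (21.2%) and 12 fell (19.9%) in wild-type cells. Tlr13, an endosomal sensor of bacterial ribosomal RNA, fell in both genotypes (-2.00 ± 0.19 in cells labelled CB2-/-, adjusted p = 2.37e-08, and -3.07 ± 0.19 in wild-type cells, adjusted p = 4.78e-12, limma). Irak3, a brake on TLR signalling, rose in both, by 2.71 ± 0.14 in cells labelled CB2-/- (adjusted p = 7.82e-13, limma) and 2.92 ± 0.14 in wild-type cells (adjusted p = 5.69e-14). Irak2, a kinase of the same complex, changed by 0.49 ± 0.18 in cells labelled CB2-/- (adjusted p = 0.0692, limma) and rose by 1.01 ± 0.18 in wild-type cells (adjusted p = 7.89e-05).

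**Figure D4:**
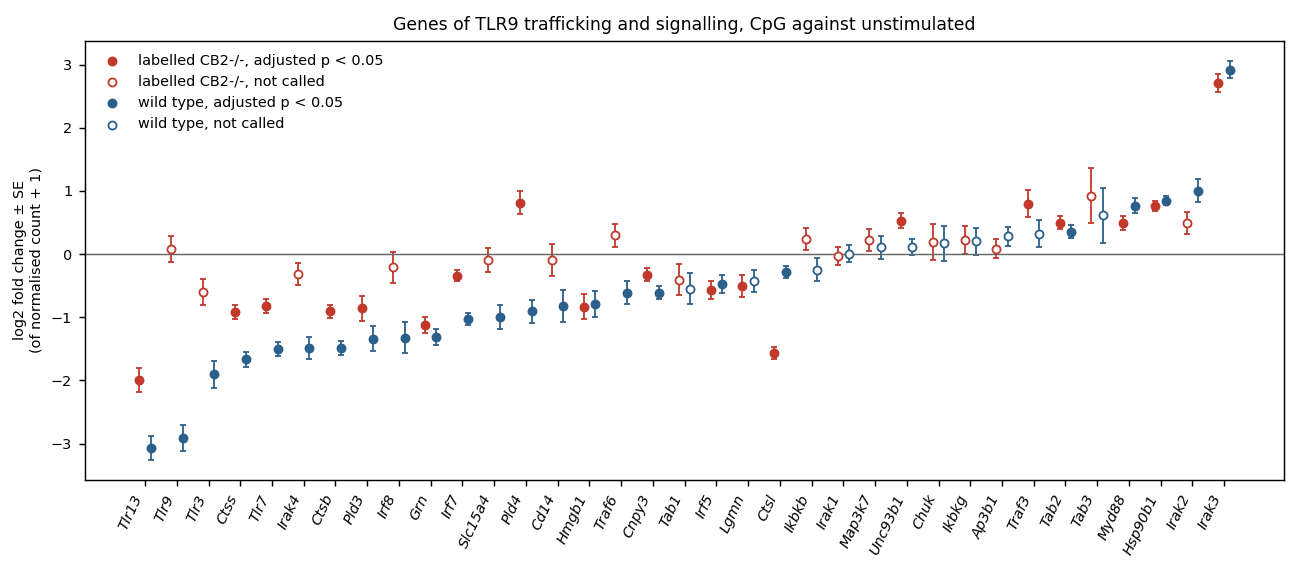
Log2 fold change with its standard error (vertical axis) of the 35 genes of TLR9 trafficking and signalling in CpG against unstimulated cells, in libraries labelled CB2-/- and wild type, ordered by the wild-type change; filled points passed the threshold. Tlr13 and Tlr9 are lowest in wild type and Irak3 is highest in both.

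Genes around Slc13a3's cargo were a list of 28 for dicarboxylate, citrate and itaconate handling, of which 23 were tested. In cells labelled CB2-/- 3 rose with CpG (Slc25a10, Acod1 and Mdh2) and 4 fell (Aco1, Idh1, Idh2 and Mdh1). In wild-type cells 9 rose and 5 fell (Acly, Idh1, Idh3g, Sdhd and Mdh1). Acod1, which makes itaconate, rose by 3.55 ± 0.33 in cells labelled CB2-/- (adjusted p = 1.96e-08, limma) and 4.57 ± 0.33 in wild-type cells (adjusted p = 8.4e-11). Slc25a10, the mitochondrial dicarboxylate carrier, rose by 2.26 ± 0.21 in cells labelled CB2-/- (adjusted p = 1.77e-08, limma) and 2.40 ± 0.21 in wild-type cells (adjusted p = 2.37e-09). Idh1 and Mdh1, cytosolic dehydrogenases of isocitrate and malate, fell in both genotypes. The changes in cells labelled CB2-/- and wild-type cells were -1.85 ± 0.15 and -2.82 ± 0.15 for Idh1 and -1.60 ± 0.18 and -1.23 ± 0.18 for Mdh1, with adjusted p of at most 7.35e-06 (limma).

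Of 15 tested genes of sialic acid transfer and handling besides St6gal1, 2 rose (St3gal1 and St3gal3) and 4 fell (St6galnac4, St6galnac6, St8sia4 and Cmas) in cells labelled CB2-/-. In wild-type cells 3 rose (St3gal1, St3gal3 and St3gal5) and 7 fell. St3gal1, which caps O-glycans, rose by 1.79 ± 0.10 and 2.07 ± 0.10 (adjusted p = 1.52e-12 in cells labelled CB2-/- and 4.13e-14 in wild type, limma). St8sia4, a polysialyltransferase, fell in both, with changes of -3.46 ± 0.32 in cells labelled CB2-/- and -5.95 ± 0.32 in wild-type cells (adjusted p = 1.26e-08 and 3.31e-13, limma). Of 14 cyclophilins besides Ppic, 2 rose (Ppig and Nktr) and none fell in cells labelled CB2-/-, and 6 rose and 1 (Ppil2) fell in wild-type cells. St3gal3, a relative of St3gal1, rose in both (1.13 ± 0.25 in cells labelled CB2-/- and 0.78 ± 0.25 in wild type), and St6galnac6 fell in both. The cyclophilin rises in wild type ran from 0.45 for Ranbp2 to 0.72 for Ppid and 0.88 for Ppig.

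The lists around the other members were small. Of 10 partners of Raver and PTB proteins, none rose and 1 (Actn1) fell in cells labelled CB2-/-, and 3 (Vcl, Raver1 and Ptbp1) rose and 2 (Hnrnpll and Actn1) fell in wild-type cells, led by vinculin (Vcl) at 3.04 ± 0.46 (adjusted p = 1.21e-05, limma). Of 12 Wnt antagonists and Shisa relatives, 1 (Kremen1) rose and 2 (Dkk2 and Shisa5) fell in both genotypes. Dkk2, a secreted Wnt antagonist, changed by -4.11 ± 0.76 in cells labelled CB2-/- (adjusted p = 3.25e-04, limma) and by -4.91 ± 0.76 in wild-type cells (adjusted p = 1.39e-05). Of 11 axon guidance genes, none passed in cells labelled CB2-/- (limma, none at an unadjusted p under 0.05 either) and 1, Slit1, fell in wild-type cells, where its mean was 0.131 with CpG and 43.3 in unstimulated replicates 1 to 3. Of 6 tested genes of basement membrane anchorage, 1 (Dst) rose and 3 (Itga6, Lama3 and Cd151) fell in cells labelled CB2-/-, and 1 (Dst) rose and 2 (Itga6 and Lama3) fell in wild-type cells. The 3 tested relatives of Prss46 (Prss23, Prss36 and Prss50) passed in neither genotype (limma), and 1, Prss50 in wild type, had an unadjusted p under 0.05. Shares of all tested genes are those given with the TLR9 list, and these counts were not tested as sets.

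Each member was matched to the genes whose levels were most like its own over the 27 libraries (Pearson correlation of log2 levels, among 8734 genes with a group mean of at least 100). These correlations are inflated by shared stimuli and series and carry no test. Slc13a3 was most like Trp53rka (0.93), Pim2 (0.93) and Pik3r5 (0.93), and Shisa3 was also most like Pik3r5 (0.96), then Clec4a1 (0.95) and Rims3 (0.94). Draxin was most like Eif4g2 (0.96), Atp2a2 (0.94) and Actr3 (0.93), and Lad1 most like Lyn (0.96), Saa3 (0.96) and Rac2 (0.95). St6gal1 followed Kcnk13 (0.96), Tgfbr2 (0.95) and Adcy3 (0.94), and Zfp811 followed Irak3 (0.95), Ppfia3 (0.95) and Gpr31b (0.95). The matches were weaker for Raver2, with Nop16 (0.85), G3bp1 (0.82) and Prdx3 (0.82), for Ppic, with Chpf (0.84), Uchl1 (0.79) and Tubb5 (0.78), and for Prss46, with Emilin2 (0.86), Galnt6 (0.84) and Slc35e4 (0.82). Among the members, St6gal1 and Zfp811 ran most in opposite directions, at -0.83.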

How the data were processed

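RNA of 27 microglia libraries was sequenced with 75 bp single-end reads. Both TruSeq v2 and SMART-Seq2 preparations are described, per the labels, but not which library had which. CASAVA 1.8, kallisto and DESeq2 are named in the submitters' processing notes, without roles, and the genome build is not given in the sources used here. What the authors deposited is a signal, normalised counts that are not whole numbers and leave the depth in reads unknown. Their deposited batch-corrected table, read here as a score, served as an alternative.

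Values were taken as log2(value + 1). Genes with at least 10 in at least 3 libraries (14668 of 23995) were fitted with limma 3.58.1 in R 4.3.3, with group and library number series (lmFit, contrasts.fit, eBayes with trend, two-sided). Benjamini-Hochberg adjustment covered all tested genes, with calls made at adjusted p values under 0.05. The fit was tested on simulated data with the same normal noise for every gene and no groups listed at 0. Its behaviour for low genes such as several members was not tested. Where replicates have no number in the labels they were numbered in record order. Positions are from GENCODE M21 on GRCm38 (23950 identifiers matched), and figures from matplotlib 3.10.9. Levels are not per length and are not compared between genes.

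All 9 members are named. The other named genes are the 2 highest and 2 lowest called wild-type CpG changes of each of the 9 lists, the 3 genes most like each member, and list genes where a count is 5 or fewer. Cnr2, Jak1, Atp8a1, BC106179, S100a8, S100a9, Mpo, Ly6c2, Ccr2, Ranbp2 and Ctsl were named after their values were seen. The members and lists were chosen with earlier results of these data known. As alternatives, the low-value filter, pseudocount, scaling, weights, variance model, series term, input table and libraries were changed in turn.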

Additional observations from a re-analysis of the deposited data

Results flagged for a closer look

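The response to PolyI:C differed between genotypes by the interaction test for 6 members (limma, adjusted p under 0.05). Of these, 1 was higher in libraries labelled CB2-/- (10.8% of all tested genes) and 5 were lower (13.9%). The libraries compared are those CpG was set against when the members were picked, so nothing is read from the counts. As the log2 response of libraries labelled CB2-/- minus that of wild type, the differences were -3.23 for Slc13a3, -7.88 for Draxin, -5.5 for Lad1, 4.26 for St6gal1, -3.74 for Prss46 and -4.16 for Zfp811. The response to LPS plus IFN-γ differed for Draxin, by -3.58, and for Prss46, by -4.69, where 8.36% of all tested genes were lower and 3.98% higher. Draxin and Lad1 rest on groups listed at 0. Genotype and library series are the same split for stimulated cells, and without the series term both Prss46 differences and the Slc13a3 difference (-2.18, adjusted p = 0.0719, limma) missed the threshold.

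Prss46 had CpG responses of opposite sign in the genotypes, with a difference of -6.12 that was not tested, since CpG values chose the gene. Every CpG library labelled CB2-/- was below every unstimulated one, and every wild-type CpG library was above unstimulated replicates 1 to 3 but not above all of replicates 4 to 6.

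Shisa3 stood apart in 1 of the 6 unstimulated wild-type libraries, replicate 1, at 12.6 normalised counts against 0 to 1.42 in the other 5. The gap to the next library made up 0.887 of the whole range. The limit for listing such gaps is meant for normally distributed values, where about 1 in 20 groups passes it by chance. With 4 of the 6 libraries at 0 that rate does not hold here. Groups of 3 libraries were not screened for such gaps. The same library was low in astrocyte and fibroblast transcripts.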

How the results depend on the processing

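Of 40 calls of members, 22 held under every setting run and with any 1 compared library left out. The count of members called was 2 without the series term for LPS plus IFN-γ against PolyI:C in wild type (4 in the main result) and 1 for the genotype difference in LPS plus IFN-γ response (2). For unstimulated genotypes, with none called in the main result, it was 1 without the series term, 1 with library weights, 2 in the batch-corrected table and 2 without the 3 wild-type libraries low in astrocyte and fibroblast markers. Without the 7 libraries in which 1 gene took over 5% of the values it was 1 for PolyI:C (3) in cells labelled CB2-/-. Of LPS plus IFN-γ labelled CB2-/- that setting left replicate 1 alone, so no counts are given for it. The setting still enters the 22 calls above. These 2 sets of left-out libraries were chosen after seeing the data. Prss46 reversed in the wild-type LPS plus IFN-γ response without the series term (-0.73), where unstimulated wild-type libraries of both series form the baseline. The call held in the fit of only the compared libraries of the same series. It was lost with a pseudocount of 8 (0.86) and in the batch-corrected table (0.17). What set the series apart was not tested.

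With 1 library left out, members called ranged, for LPS plus IFN-γ, from 6 to 7 in both genotypes. For PolyI:C they were 2 to 4 in cells labelled CB2-/- and 7 in wild type. LPS plus IFN-γ against PolyI:C gave 2 to 5 in cells labelled CB2-/- and 2 to 3 in wild type. Unstimulated genotypes gave 0 to 1, and the genotype differences 2 to 3 for LPS plus IFN-γ and 6 to 7 for PolyI:C. CpG had the highest stimulated mean for 5 to 6 members in cells labelled CB2-/- and 8 in wild type, and 35 to 37 list genes were called with CpG in cells labelled CB2-/- (42 in the main result) and 59 to 68 in wild type (67). Of 198 CpG values of members under other settings, 53 moved by more than the replicate spread. Quantile scaling moved the median of all genes by 0.14 in the wild-type CpG response, -0.11 in the wild-type LPS plus IFN-γ response, 0.28 and 0.15 for CpG against LPS plus IFN-γ and against PolyI:C in wild type, and -0.12 in the genotype difference in CpG response. Tests on reads were not run, since only 5.63 to 78.5% of low values per library were whole steps (tolerance 0.1). No paired analysis was possible because the labels give no replicate numbers.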
